A study of Homo sapiens with 3 samples.

Results

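The 9 genes described here are the core of the TGF-beta pathway: the ligands TGFB1, TGFB2 and TGFB3, the receptors TGFBR1 and TGFBR2, and the signal transducers and inhibitor SMAD2, SMAD3, SMAD4 and SMAD7. They were chosen by name and not by a rule on their values, though with earlier results of these data known. Each of the 9 was found once by its symbol among the 58735 genes that the count files list. RNA-seq counts were available for 3 libraries of DU145, a human prostate cancer cell line. One library is labelled control, and the other 2, labelled PD-L1 knockdown 1 and 2, came from cells with short hairpin RNA against CD274, the gene of the immune checkpoint ligand PD-L1. The study's methods describe stable knockdown lines made with lentivirus and selected with puromycin, and an empty vector as their control, but do not say whether the sequenced control carried that vector. Column headings number the hairpins 1 and 2, and the RNA-seq methods name cells PD-L1sh1/2, but the methods give 1 hairpin sequence. Whether the knockdown libraries carried different hairpins is therefore not settled by the sources used here. No TGF-beta or other treatment is described. The comparison asks which transcripts differ in DU145 cells when PD-L1 is targeted.

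CD274 was counted 204 times in the control library, 213 times in library 1 labelled knockdown and 224 times in library 2. Its RNA was thus not lower in the libraries labelled knockdown, which are named by their labels throughout. The paper states that its stable lines were checked by Western blot, with PD-L1 protein shown for knockdown DU145 cells. RNA counts do not measure that protein. Count totals lay between 14733088 and 15786457. Of the defining markers of cell types, the 5 epithelial genes summed to between 32106 and 37979 counts per library, 5 immune genes to between 13 and 18, 4 endothelial genes to between 7 and 13, and 7 fibroblast genes to between 102 and 157 with LUM and DCN at 0. KLK3, KLK2 and TMPRSS2, markers of prostate luminal cells, had 0 counts in all 3 libraries, where the upper limit for an uncounted gene, 3 counts, corresponds to at most 0.204 CPM, the count scaled to library size. NKX2-1, a transcription factor of thyroid and lung, had between 1833 and 2590 counts, the design text of the series names another cell line, BCPAP, and the heading of the control count column names RBM45.

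TGF-beta ligands are secreted in a latent form bound to their own propeptide and become active once they are released from it. The active dimer binds the type II receptor TGFBR2, which phosphorylates the type I receptor TGFBR1, and TGFBR1 in turn phosphorylates SMAD2 and SMAD3 at serines at their carboxyl end. These form complexes with SMAD4 that enter the nucleus and regulate transcription, SMAD7 is a target gene of the pathway that blocks the activated receptor, and in carcinoma cells the pathway is known both for restraint of proliferation and for epithelial to mesenchymal transition.

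The coding ends of the 4 SMAD genes show where the receptor-activated SMADs differ from the other 2 types. Each sequence is the last 30 coding bases of the principal GENCODE transcript on GRCh38, 5′ to 3′ and ending with the stop codon. Capitals mark serine codons among the last 4 codons before the stop.
SMAD2: ccttcagtgcgttgcTCAAGCatgTCAtaa
SMAD3: ccaagcatccgctgtTCCAGTgtgTCTtag
SMAD4: ccgattgcagacccacaacctttagactga
SMAD7: tggctagaggtcatcttcaacAGCcggtag
SMAD2 and SMAD3 each have 3 serine codons in this window, in the same places, whereas SMAD7 has 1 and SMAD4 has 0. The counts below are per gene and do not show whether any of these serines was phosphorylated.

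All 9 genes were counted in all 3 libraries. Their levels are given in FPKM (fragments per kilobase of listed gene length, scaled to library size). The order of genes on this scale rests on the listed length, 36366 bases for SMAD2 and 3238 for TGFB1. Levels per coding base, given below, order some members otherwise. The mean FPKM over the 3 libraries was 55.9 for TGFBR2, 35.5 for TGFB1, 31 for SMAD3, 7.67 for TGFBR1 and 7.02 for TGFB2. It was 3.33 for SMAD2, 2.9 for SMAD4, 2.67 for SMAD7 and 0.934 for TGFB3. TGFBR2, TGFB1 and SMAD3 were among the more abundant transcripts of the control library, where 97.1%, 94% and 93.9% of protein-coding genes had a lower FPKM, and TGFB3 was the least abundant member with 44.9% below it. The ranges over the 3 libraries overlapped between the neighbours TGFBR1 and TGFB2, SMAD2 and SMAD4, SMAD4 and SMAD7, and, by one library, TGFB1 and SMAD3. The range of TGFBR2 (53.3 to 59.2 FPKM) lay above those of TGFB1 and SMAD3, and the range of TGFB3 (0.619 to 1.25 FPKM) lay below those of all other members.

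**Figure D1:**
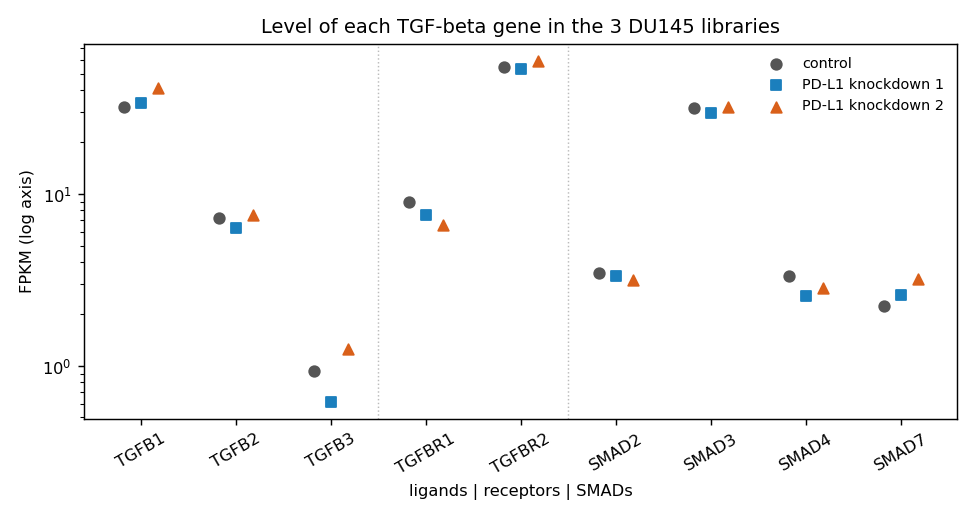
FPKM (log axis) of the 9 TGF-beta genes in the control library (grey circles) and the libraries labelled PD-L1 knockdown 1 (blue squares) and 2 (orange triangles), 1 point per library without error bars. TGFBR2, TGFB1 and SMAD3 stand highest, TGFB3 stands lowest, and the order of these 4 genes against the remaining members is the same in each library.

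None of the 9 genes was called different between the 2 libraries labelled knockdown and the control. By the quasi-likelihood test of edgeR, Benjamini-Hochberg adjusted over all tested genes, 0 of 9 members passed an adjusted p of 0.05, beside 70 of 19849 tested genes (0.353%). At an unadjusted p under 0.05 the same test gave 2 members lower, TGFBR1 and SMAD4, beside 4.92% of all tested genes, and 0 higher, beside 6.82% of all tested genes. limma-voom gave 0 members at its adjusted p and 1 at its unadjusted p, and DESeq2 gave 0 at both. No member passed an unadjusted p under 0.05 together with an absolute log2 fold change above 1, a threshold read from the picture of the study's volcano plot, which 2.48% of tested genes passed. The median log2 fold change of the members was -0.031 and that of all tested genes was 0.0015. The control had 1 library, so the spread in this test came from the 2 libraries labelled knockdown, and was estimated as equal for all genes of like mean count. Whether it is a spread between hairpins or between repeats of 1 hairpin cannot be told apart.

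Each library labelled knockdown was also compared with the control by the ratio of scaled counts, with an exact 95% interval that covers counting error only. Of the 8 members with a mean of at least 100 counts (all but TGFB3), the ratio of knockdown 1 to control left out 1 for 4, all of them lower (TGFB2, TGFBR1, SMAD3 and SMAD4), beside 40.6% of the 10861 genes counted that well. The ratio of knockdown 2 to control left out 1 for 3 higher members (TGFB1, TGFBR2 and SMAD7) and 3 lower ones (TGFBR1, SMAD2 and SMAD4), beside 56.2% of those genes. TGFBR1 and SMAD4 were lower by this measure in both libraries and no member was higher in both, beside 30.5% of genes that moved the same way in both. The ratio between the knockdown libraries themselves, 2 to 1, left out 1 for 5 higher members and 1 lower member, beside 37.5% of genes. In 4 members (TGFB2, TGFB3, TGFBR2 and SMAD3) the libraries labelled knockdown stood on opposite sides of the control. The share of all genes that did so was not counted, so whether this number is usual is not known. Fewer cells that express a gene and less of its RNA per cell cannot be told apart in these bulk libraries.

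**Figure D2:**
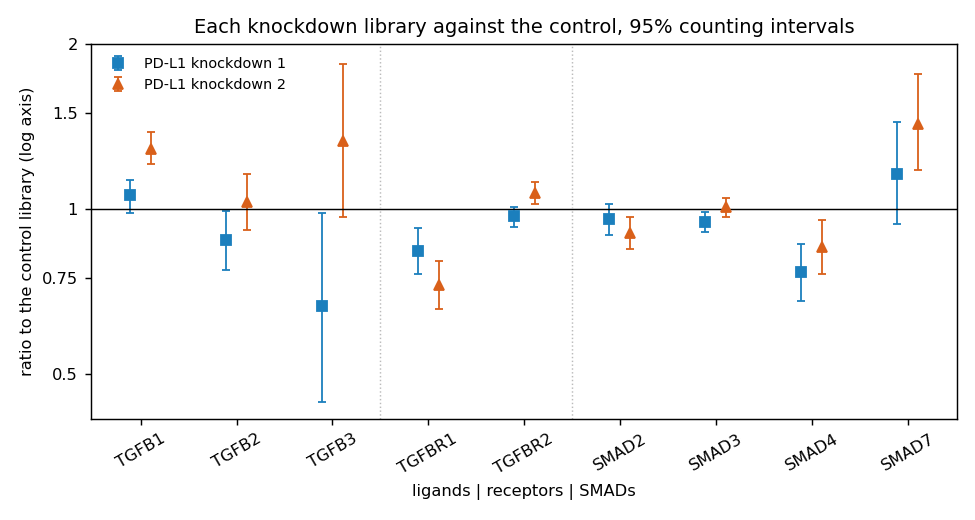
Ratio of scaled counts to the control library (log axis) for the libraries labelled PD-L1 knockdown 1 (blue squares) and 2 (orange triangles), with exact 95% counting intervals as bars and a line at 1. For TGFBR1 and SMAD4 both intervals lie below 1, and for TGFB2, TGFB3, TGFBR2 and SMAD3 the points lie on opposite sides of the line.

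Part of the difference between libraries followed the GC content of the transcripts over all genes. In the class of tested genes with the lowest GC content (23.1% to 38.2%) the mean log2 ratio to the control was -0.17 in knockdown 1 and -0.28 in knockdown 2, and in the class with the highest (63.8% to 83.9%) it was 0.16 and 0.32. The members were spread along this trend. TGFBR2 (47.2% GC), TGFB3 (52.4%) and SMAD3 (54%) lay in its middle, where class means were near 0. TGFB1 (61.4% GC) and SMAD7 (56.7%) had higher mean ratios, whereas TGFBR1 (39.7%), SMAD4 (40.9%), TGFB2 (38.9%) and SMAD2 (40.2%) had lower ones. The value after removal of the trends with gene length and GC content is therefore given with each of these genes below.

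**Figure D3:**
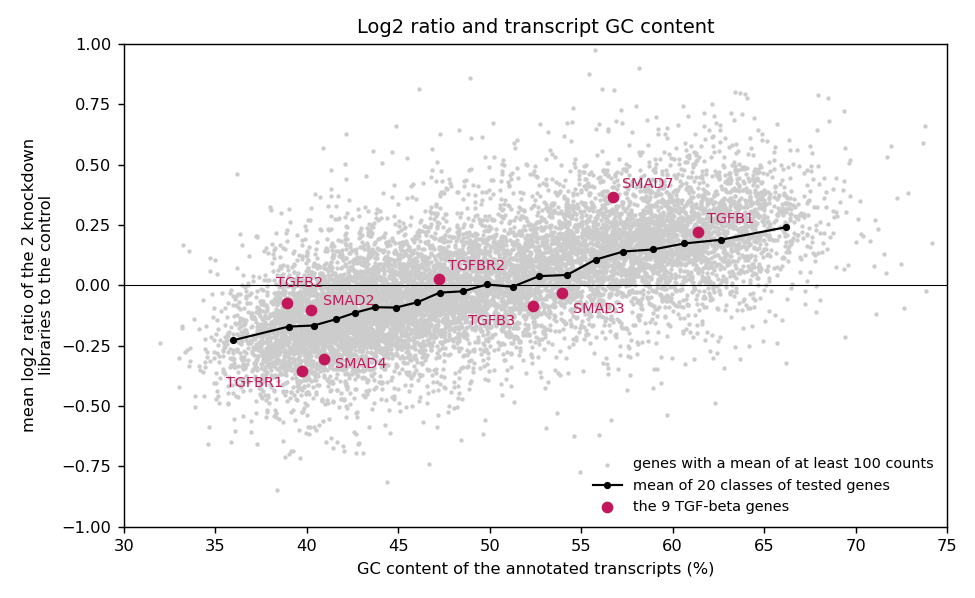
Mean log2 ratio of the 2 libraries labelled knockdown to the control against the GC content (%) of the annotated transcripts, for genes averaging 100 counts or more (grey), the mean of 20 GC classes of tested genes (black line) and the 9 TGF-beta genes (red); genes outside the axes are not drawn. The class means rise with GC content. TGFBR1, SMAD4, SMAD7 and TGFB1 lie farther from 0 than the class mean at their GC content, on the same side. TGFB3 also lies farther from 0 than its class mean, but on the opposite side.

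Among the ligands, TGFB1 (ENSG00000105329, chr19:41301587-41353911 on GRCh38, minus strand), the most widely expressed of the ligands, had 1528 counts in the control, 1606 in knockdown 1 and 2108 in knockdown 2, or 31.8, 33.6 and 41.2 FPKM. Knockdown 2 was the high library, and knockdown 1 lay close to the control. The ratio to the control was 1.06 (0.984 to 1.13) in knockdown 1 and 1.29 (1.21 to 1.38) in knockdown 2, and that between the libraries labelled knockdown was 1.22 (1.14 to 1.3). Its log2 fold change of 0.23 (SE 0.12) had an adjusted p of 0.462 by edgeR (quasi-likelihood, Benjamini-Hochberg adjusted). After removal of the length and GC trends it was 0.0041. The exons of TGFB1 overlap those of HNRNPUL1 on the opposite strand over 215 bases, and whether the counting used the strand is not stated.

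TGFB2 (ENSG00000092969, chr1:218346235-218444619, plus strand), a ligand that needs a co-receptor for strong binding to TGFBR2, had 553 counts in the control, 483 in knockdown 1 and 610 in knockdown 2, or 7.23, 6.34 and 7.5 FPKM. The control lay between the other 2 libraries. The ratio was 0.877 (0.775 to 0.993) in knockdown 1 and 1.03 (0.917 to 1.16) in knockdown 2, and the log2 fold change was -0.067 (SE 0.16, adjusted p = 0.912 by edgeR). After removal of the length and GC trends its sign turned, to 0.082. TGFB2-OT1, a transcript that lies within the exons of TGFB2 over 1371 bases on the same strand, was listed at 0 counts in all 3 libraries. It shares 25.9% of the 31-base stretches of TGFB2 transcripts. How reads in this overlap were counted is not stated.

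TGFB3 (ENSG00000119699, chr14:75958099-75982991, minus strand), the third ligand, had 68 counts in the control, 45 in knockdown 1 and 97 in knockdown 2, or 0.932, 0.619 and 1.25 FPKM. Here the libraries labelled knockdown differed most from each other among the members, by a ratio of 2 (1.39 to 2.92), and the control lay between them. Its log2 fold change of 0.0055 (SE 0.32, adjusted p = 0.995 by edgeR) averages a ratio of 0.665 (0.446 to 0.983) and a ratio of 1.33 (0.967 to 1.84), and its 95% interval ran from -0.62 to 0.63, so that at this depth a change of that size in either direction was not detectable. Its sign was not stable: it was negative with limma-voom, with the length trend removed, with length and GC trends removed, on both log2 FPKM scales and without knockdown 2.

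TGFB1 supplied most of the ligand transcripts in each library. Its share of the summed FPKM of the 3 ligands was 79.6% in the control, 82.8% in knockdown 1 and 82.5% in knockdown 2. TGFB2 took 18.1%, 15.7% and 15%, and TGFB3 took 2.33%, 1.53% and 2.5%. The summed ligand level was 39.9, 40.5 and 49.9 FPKM in the same order, so knockdown 1 was close to the control and knockdown 2 stood above both.

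Of the receptors, TGFBR1 (ENSG00000106799, chr9:99104038-99154192, plus strand), the type I kinase that phosphorylates SMAD2 and SMAD3, had 909 counts in the control, 759 in knockdown 1 and 709 in knockdown 2, or 8.94, 7.5 and 6.56 FPKM. Both libraries labelled knockdown were below the control. The ratio was 0.839 (0.761 to 0.925) in knockdown 1 and 0.728 (0.659 to 0.805) in knockdown 2, and these libraries differed from each other by 0.869 (0.783 to 0.964). The log2 fold change was -0.35 (SE 0.14), with an unadjusted p of 0.0125 and an adjusted p of 0.283 by edgeR (quasi-likelihood, Benjamini-Hochberg adjusted). It had the smallest unadjusted p among the members and its adjusted p missed the threshold. The class of genes of like GC content had mean log2 ratios of -0.13 and -0.22, against -0.25 and -0.46 for TGFBR1, and after removal of the length and GC trends the log2 fold change was -0.16, with an unadjusted p of 0.188 by edgeR.

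TGFBR2 (ENSG00000163513, chr3:30606502-30694142, plus strand), the type II receptor that binds the ligand, had 3841 counts in the control, 3709 in knockdown 1 and 4402 in knockdown 2, or 55, 53.3 and 59.2 FPKM. The control lay between the others. The ratio was 0.97 (0.927 to 1.01) in knockdown 1 and 1.07 (1.02 to 1.12) in knockdown 2. TGFBR2 had a log2 fold change of 0.029 (SE 0.11, adjusted p = 0.949 by edgeR), with a 95% interval from -0.20 to 0.25.

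The receptors thus stood at different levels in each library. The FPKM of TGFBR2 was 6.15 times that of TGFBR1 in the control, 7.11 times in knockdown 1 and 9.03 times in knockdown 2. Per coding base of the principal transcripts the ratio was smaller, at 3.75, 4.34 and 5.51 in the same libraries. With 1 control library, whether this ratio of levels differed between the conditions was not tested.

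Of the SMADs, SMAD2 (ENSG00000175387, chr18:47808957-47931146, minus strand), a receptor-activated SMAD, had 1881 counts in the control, 1796 in knockdown 1 and 1823 in knockdown 2, or 3.48, 3.34 and 3.17 FPKM. Both libraries labelled knockdown were slightly below the control, with ratios of 0.959 (0.898 to 1.02) and 0.905 (0.848 to 0.966). SMAD2 had a log2 fold change of -0.10 (SE 0.12, adjusted p = 0.792 by edgeR). Its GC class had mean log2 ratios of -0.12 and -0.21, against -0.06 and -0.14 for SMAD2, and after removal of the length and GC trends the sign turned, to 0.13.

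SMAD3 (ENSG00000166949, chr15:67063763-67195195, plus strand), the other receptor-activated SMAD and one that binds DNA directly, had 4245 counts in the control, 4003 in knockdown 1 and 4594 in knockdown 2, or 31.4, 29.7 and 31.9 FPKM. The 3 libraries lay close together, with ratios of 0.947 (0.907 to 0.989) and 1.01 (0.969 to 1.05). SMAD3 had a log2 fold change of -0.031 (SE 0.11, adjusted p = 0.946 by edgeR), with a 95% interval from -0.25 to 0.19. An antisense gene, AC087482.1, overlaps its exons over 182 bases and had 1, 8 and 9 counts.

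SMAD3 stood above SMAD2 in every library on every scale, but by an amount that depended on the length used. By FPKM the ratio of SMAD3 to SMAD2 was 9.01 in the control, 8.89 in knockdown 1 and 10.1 in knockdown 2. The listed length of SMAD2 is 36366 bases, and its principal transcript has 1401 coding bases. Per coding base of the principal transcript, the ratio was 2.48, 2.45 and 2.77 in the same libraries. The order of the members also rests on the length. Per coding base, on a scale that is otherwise that of FPKM, SMAD3 (224) stood above TGFBR2 (152) in the control, and SMAD2 (90.4) stood beside TGFB1 (88) and above SMAD4 (26.2), whereas TGFB3 (3.71) was lowest on both scales.

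SMAD4 (ENSG00000141646, chr18:51028394-51085045, plus strand), the common partner of the receptor-activated SMADs, had 645 counts in the control, 493 in knockdown 1 and 590 in knockdown 2, or 3.31, 2.54 and 2.85 FPKM. Both libraries labelled knockdown were below the control, with ratios of 0.768 (0.681 to 0.865) and 0.854 (0.763 to 0.957). The log2 fold change was -0.30 (SE 0.15), with an unadjusted p of 0.0493 and an adjusted p of 0.425 by edgeR (quasi-likelihood, Benjamini-Hochberg adjusted). The GC class of SMAD4 had mean log2 ratios of -0.12 and -0.21, against -0.38 and -0.23 for SMAD4, so that the library of knockdown 2 lay near its class. After removal of the length and GC trends the log2 fold change was -0.064. The exons of SMAD4 overlap those of AC091551.1 on the same strand over 967 bases, and AC091551.1 had 0 counts in all 3 libraries.

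SMAD7 (ENSG00000101665, chr18:48919853-48952052, minus strand), the inhibitory SMAD, had 166 counts in the control, 192 in knockdown 1 and 255 in knockdown 2, or 2.22, 2.58 and 3.21 FPKM. Both libraries labelled knockdown were above the control, with ratios of 1.16 (0.939 to 1.44) and 1.43 (1.18 to 1.76), and the second was above the first by 1.24 (1.02 to 1.5). The log2 fold change was 0.38 (SE 0.21), with an unadjusted p of 0.0714 and an adjusted p of 0.474 by edgeR (quasi-likelihood, Benjamini-Hochberg adjusted). Its GC class had mean log2 ratios of 0.12 and 0.16, against 0.21 and 0.51 for SMAD7, and the log2 fold change without the length and GC trends was 0.23.

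The rest of the pathway was examined in 7 lists that hold 101 genes, of which 86 were tested. By edgeR 1 of the 86 passed the adjusted p (0.353% of all tested genes did), 8 were higher (6.82% of all) and 7 lower (4.92% of all) at an unadjusted p under 0.05, and 1 passed the fold and p threshold (2.48% of all). The same all-gene shares stand behind the counts of each list below. The median log2 fold change over them was 0.038. ITGAV, ACVR2B, FSTL3, SKI, CDKN1A, TAGLN and ZEB1 are named below after their values were seen, to complete the counts at the unadjusted p.

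Of the 32 target genes of TGF-beta and BMP signalling, 31 were tested, 5 were higher (6.82% of all tested genes) and 2 lower (4.92% of all) at an unadjusted p under 0.05, and the median log2 fold change was 0.13. The higher ones were ID3, JUNB, CYR61, CDKN1A and TAGLN, and the lower ones were SKIL and ZEB1, a repressor of epithelial genes. The GC content of the 5 higher genes ran from 53% to 64.9%, and SKIL and ZEB1 had 37.2% and 41.4%. GC class means over all genes had the same signs, but at the 53% of CYR61 they were near 0 (0.037 and 0.04). Whether this trend underlies the calls was not tested. ID3, an inhibitor of basic helix-loop-helix factors that BMP signalling induces, was the only listed gene past the adjusted p. It had 774 counts in the control, 1088 in knockdown 1 and 1217 in knockdown 2, a log2 fold change of 0.53 (SE 0.14) and an adjusted p of 0.0458 by edgeR (quasi-likelihood, Benjamini-Hochberg adjusted). This call was lost under 6 of the alternatives, where the adjusted p ran from 0.0519 with library totals through 0.596 with the length and GC trends removed to 1 with DESeq2. JUNB, a subunit of the AP-1 transcription factor chosen for mention after its values were known, had 388, 544 and 684 counts with an adjusted p of 0.0508 by edgeR. The adjusted p of JUNB was 0.0386 by edgeR on genes with a mean of 20 or more counts, and its log2 fold change fell from 0.61 to 0.33 with the length and GC trends removed.

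The further genes named from this list of TGF-beta and BMP targets did not pass the adjusted p under the main settings. TGFBI, a secreted matrix protein, had 2902 counts in the control, 2825 in knockdown 1 and 3177 in knockdown 2, and PMEPA1, a feedback inhibitor, had 1469, 1532 and 1835. Both were well counted in all 3 libraries. The matricellular gene CTGF (CCN2) had 474, 482 and 370 counts, and CYR61 (CCN1), with ID1 the most abundant of the list, had 4043, 4820 and 5307 with an adjusted p of 0.302 by edgeR. ID1 had 2021, 2271 and 2542 counts. The immediate early factor KLF10 had 639, 528 and 582 counts, and MYC, which TGF-beta represses in many epithelial cells, had 1540, 1623 and 1913.

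In the list of latency and activation, 12 of 14 genes were tested, 1 was higher (FURIN) and 2 lower (ITGAV and ITGB8) at an unadjusted p under 0.05. ITGB8, the integrin subunit that with ITGAV releases latent TGF-beta, passed the fold and p threshold with 50 counts in the control, 17 in knockdown 1 and 28 in knockdown 2. Its log2 fold change was -1.20 (SE 0.44), with an adjusted p of 0.231 by edgeR. It no longer passed that threshold with DESeq2 (unadjusted p of 0.138) or with the length and GC trends removed (log2 fold change of -0.99). Without knockdown 1 the value was -0.93, and without knockdown 2 it was -1.54. The 2 most abundant genes of the list were ITGB1, the common integrin beta subunit, with 318, 296 and 300 FPKM, and FURIN, the protease that cleaves the TGF-beta precursor, with 22.2, 26.7 and 27.7 FPKM and an adjusted p of 0.336 by edgeR.

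Of the inhibitors and regulators, 22 of 23 genes were tested, 2 were higher (SKI and FSTL3) and 1 lower at an unadjusted p under 0.05. SKIL, a SMAD corepressor that is both an inhibitor and a target gene, was the lower one, with 898, 649 and 772 counts and an adjusted p of 0.226 by edgeR. The most abundant genes of this list, FKBP1A, which binds TGFBR1, and STRAP, a receptor-associated protein, had 75.6, 81.3 and 77.8 FPKM and 62.4, 65.7 and 62.6 FPKM.

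Among other receptors of the superfamily, 10 of 11 were tested, 2 were lower (BMPR2 and ACVR2B; 4.92% of all tested genes) and 0 higher (6.82% of all) at an unadjusted p under 0.05, and the median log2 fold change was -0.20. The most abundant were BMPR2, the type II receptor of BMP ligands, with 11, 8.14 and 9.46 FPKM and a log2 fold change of -0.32 beside a mean of -0.23 in its GC class, and ACVR1B, an activin type I receptor, with 8.17, 8.27 and 7.26 FPKM. Among other ligands, 8 of 17 were tested and 0 passed even the unadjusted p. BMP4 had 9.42, 9.57 and 10.8 FPKM and GDF11 4.97, 4.59 and 5.91 FPKM. Among the other 4 SMADs, 1 was lower at an unadjusted p under 0.05, SMAD5 of the BMP branch with 1478, 1315 and 1147 counts, whereas SMAD1 of the same branch had 371, 345 and 389. Of the nuclear cofactors, SP1 had 21.1, 19.3 and 17.9 FPKM and EP300 13.6, 12.4 and 12.5 FPKM, and 0 of 3 tested passed the unadjusted p.

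**Figure D4:**
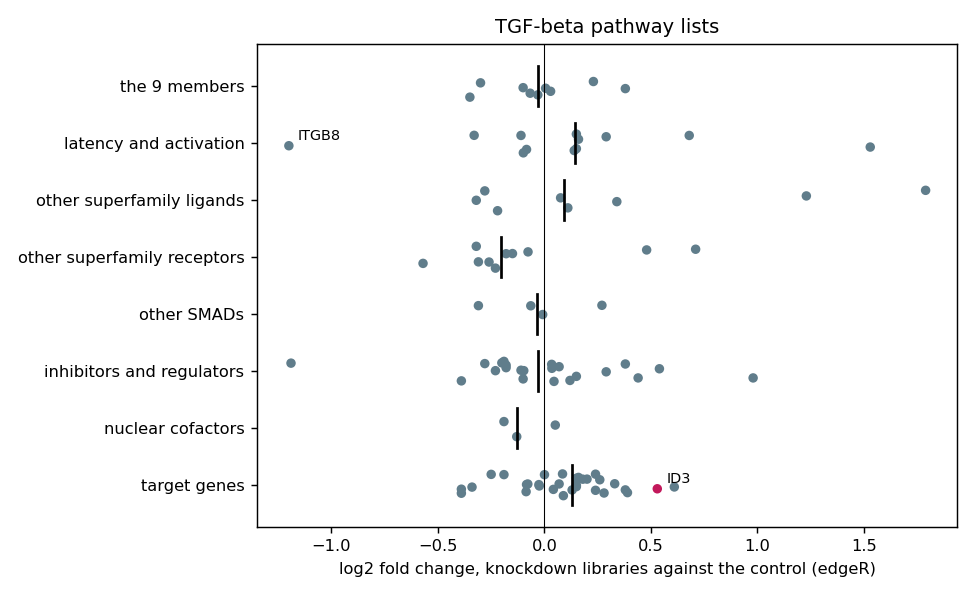
Log2 fold change by edgeR of the 2 libraries labelled knockdown over the control for each tested gene (points, spread vertically for sight) of the 9 members and the 7 other pathway lists, with black bars at list medians. The members lie between -0.35 and 0.38, and the named points are ID3 (red, past the adjusted p) and ITGB8 (past the fold and p threshold).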

How the data were processed

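The authors deposited, for each of 3 libraries of poly(A) RNA from DU145 cells, read counts per gene and FPKM values. The deposited counts are not normalized. The FPKM of the authors were checked to equal counts over listed gene length and 1 library constant. Bowtie2 2.0.6, TopHat2 2.0.9, Cufflinks 2.1.1 and Cuffdiff 2.1.1 are named in the submitters' processing notes without a role, and the strand setting is not given in the sources used here. The 58735 deposited gene identifiers and coordinates are those of GENCODE release 29 on GRCh38, which gave loci, overlaps, GC content and the coding ends. Count columns of other samples numbered 0.

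The main test was edgeR 4.0.16 under R 4.3.3 (TMM, quasi-likelihood) on the 19849 genes whose counts summed to 10 or more, the 2 libraries labelled knockdown against 1 control, with Benjamini-Hochberg adjustment over all of them. The fit had 1 residual degree of freedom per gene. Nothing says whether the libraries came from repeated cultures, so p-values measure only the spread between the 2 knockdown libraries, which differed by more than sampling noise (chi-square per degree of freedom of 5.29). Intervals of ratios are exact and, like the limit of 3 counts, cover counting error only, because PCR copies of a molecule were not told apart. Alternatives were DESeq2 1.42.0, limma-voom (limma 3.58.1), other scalings and count minimums, trends with length and GC content removed in 20 classes, and log2(FPKM + 1) and log2(FPKM + 0.1), a scale that understates changes of low genes. The fits were tested on simulated data.

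The members and lists were chosen with earlier results of these data known. In the other lists, genes past a threshold, the 2 with the highest mean FPKM, and, in the target list, CCN2, TGFBI, SKIL, PMEPA1, KLF10, ID1 and MYC were named. Some genes of the lists are not reported here.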

Additional observations from a re-analysis of the deposited data

How the results depend on the processing

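No member passed the adjusted p, or the fold and p threshold, under the main settings or any of the 8 tested alternatives. Of 72 member values under these alternatives, 65 kept their direction and side of the threshold and 7 turned in direction: with the length trend removed TGFB3 (-0.0042), TGFBR2 (-0.0035) and SMAD3 (0.011), with length and GC trends removed TGFB2 (0.082), TGFB3 (-0.042) and SMAD2 (0.13), and with limma-voom TGFB3 (-0.072). The removal of the GC trend was chosen after seeing the data. Over all genes, the 70 past the adjusted p were 8 with length and GC trends removed, 42 with limma-voom and 6 with DESeq2, and the 492 past the fold and p threshold were 135 with a mean of at least 20 counts, by its construction of fewer low genes, and 46 with DESeq2. Their split of 305 higher and 187 lower was 195 and 288 with limma-voom. Where not stated, the cause was not tested. Without either knockdown library in turn, values with no test, the log2 fold change was 0.078 to 0.37 for TGFB1, -0.19 to 0.046 for TGFB2, -0.59 to 0.42 for TGFB3, -0.45 to -0.25 for TGFBR1, -0.044 to 0.10 for TGFBR2, -0.14 to -0.06 for SMAD2, -0.078 to 0.019 for SMAD3, -0.38 to -0.22 for SMAD4 and 0.22 to 0.52 for SMAD7. No paired analysis was possible because the control has 1 library and the groups share fewer than 2 replicate numbers. The single control limits every comparison, and TGFB3, with at most 97 counts per library, is the member that depth limits most.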
